A study of Homo sapiens with 6 samples.

Results

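The regions described here are H3K27ac peaks that lie deep inside protein-coding genes in human neurons. A peak was a member when it was narrower than 2000 bp, its summit lay inside a protein-coding gene, and the summit was more than 10 kb from both ends of every protein-coding gene on chromosomes 1 to 22 and X. Of 78694 peaks in the H3K27ac list, 78639 were on those chromosomes and 25503 of these were members (32.4%, 95% Wilson interval 32.1 to 32.8%). The members were chosen by peak width and summit position, among peaks called on H3K27ac signal, so their width, position and fold enrichment are given as a description.

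The cells were neurons, made by differentiating neural progenitors of the human induced pluripotent stem cell line KOLF2.1J. All samples came from this 1 line, with no treatment or genotype contrast. Chromatin immunoprecipitation with sequencing (ChIP-seq) was made for H3K27ac and for CTCF, with 2 libraries each, beside 2 input libraries. Each antibody gave 1 peak list for both of its libraries, so no value here has a replicate error, and the depth of the libraries is unknown. All intervals below are 95% intervals and cover counting error only, with each peak counted as if independent, although neighbouring peaks are not.

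H3K27ac is acetylation of lysine 27 on histone H3, a mark of active promoters and enhancers. Many enhancers of long neuronal genes are known to lie in introns, and a long gene can also carry internal promoters, from which shorter transcripts start, and small non-coding genes nested in its introns. CTCF is a DNA-binding protein that, with cohesin, helps to set the ends of chromatin loops.

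The label of the cells was set beside marker genes. Of all 19970 coding genes 69.0% overlapped an H3K27ac peak of any kind. So did 11 of 11 neuronal genes (MAPT, MAP2, DCX and others) and 8 of 8 progenitor genes (SOX2, PAX6, NES and others). It was 20 of 31 for astrocyte and oligodendrocyte genes, 22 of 34 for blood and immune genes and 19 of 36 for liver, muscle and gut genes. The strongest peak in a gene had a median fold enrichment of 17.0 over the neuronal genes (11.4 to 47.0) and 32.1 over the progenitor genes (9.1 to 50.3), beside 14.6 over all coding genes with a peak. Genes of both kinds carried the mark. The part that progenitors or other cells in the cultures play in the members was not tested.

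Some of the strongest members sat on internal transcript starts of their own host gene. Internal means only that a start lay more than 10 kb from every coding gene end, so it can also be a gene's main start. Which start of a gene is its main one was not tested. The sequences of these starts are shown first, beside those of internal starts that lacked the mark. CpG content differed between the 2 kinds of start as groups, though not start by start. Each run gives the 150 bases upstream of a start, 5′ to 3′ on the strand of transcription, from RefSeq (GRCh38.p14), with CpG dinucleotides in capitals. The first 4 are the internal coding starts under the strongest members, in the genes of a ciliary dynein-2 subunit (DYNC2I2), mitochondrial superoxide dismutase (SOD2), an acylphosphatase (ACYP2) and asparagine synthetase (ASNS).
DYNC2I2, chr9:128656848-128656997, minus strand: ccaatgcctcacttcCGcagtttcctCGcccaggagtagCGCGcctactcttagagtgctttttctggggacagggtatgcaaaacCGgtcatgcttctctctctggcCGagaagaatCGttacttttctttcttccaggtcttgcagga
SOD2, chr6:159693242-159693391, minus strand: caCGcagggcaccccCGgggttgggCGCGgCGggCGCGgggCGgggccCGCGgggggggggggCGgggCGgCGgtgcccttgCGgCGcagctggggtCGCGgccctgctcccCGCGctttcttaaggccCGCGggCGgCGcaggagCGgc
ACYP2, chr2:54115465-54115614, plus strand: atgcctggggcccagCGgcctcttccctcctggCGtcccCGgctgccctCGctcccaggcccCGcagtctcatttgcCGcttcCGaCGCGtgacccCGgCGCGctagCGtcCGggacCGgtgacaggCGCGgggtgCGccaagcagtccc
ASNS, chr7:97872409-97872558, minus strand: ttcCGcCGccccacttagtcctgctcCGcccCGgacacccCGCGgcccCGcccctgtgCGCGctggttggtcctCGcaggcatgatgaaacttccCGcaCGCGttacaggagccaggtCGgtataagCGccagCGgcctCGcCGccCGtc

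The next 2 are the starts of long non-coding RNA (lncRNA) genes under the strongest members of that kind, FAM13B-AS1 inside FAM13B and LOC107986023 inside ATP2C1, the gene of a Golgi calcium pump.
FAM13B-AS1, chr5:138032624-138032773, plus strand: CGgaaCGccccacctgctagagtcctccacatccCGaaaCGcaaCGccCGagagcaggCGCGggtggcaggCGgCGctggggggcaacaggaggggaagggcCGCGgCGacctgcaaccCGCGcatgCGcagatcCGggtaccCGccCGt
LOC107986023, chr3:130893922-130894071, minus strand: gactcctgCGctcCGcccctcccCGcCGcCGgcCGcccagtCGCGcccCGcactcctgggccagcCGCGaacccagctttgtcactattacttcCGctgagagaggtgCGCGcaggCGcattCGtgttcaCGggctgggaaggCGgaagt

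The last 2 are internal starts outside every H3K27ac peak, in the genes with the longest deep interior that have such a start: RBFOX1, a neuronal splicing regulator, and PTPRD, a receptor phosphatase of synaptic adhesion.
RBFOX1, chr16:6483236-6483385, plus strand: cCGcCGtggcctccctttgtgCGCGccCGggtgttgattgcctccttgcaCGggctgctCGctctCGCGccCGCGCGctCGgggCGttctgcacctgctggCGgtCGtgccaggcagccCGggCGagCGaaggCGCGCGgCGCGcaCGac
PTPRD, chr9:8779392-8779541, minus strand: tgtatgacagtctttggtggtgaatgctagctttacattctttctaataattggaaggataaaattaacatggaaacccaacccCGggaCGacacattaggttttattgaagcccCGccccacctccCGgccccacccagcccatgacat

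The member at the DYNC2I2 start had a fold enrichment of 98.1 at its summit, the highest of all members, with 7 CpG in the 150 bases shown. The SOD2 member had a fold enrichment of 70.5 and 24 CpG, the ACYP2 member 68.8 and 18 CpG, and the ASNS member 59.8 and 19 CpG. The FAM13B-AS1 member had 47.1 with 19 CpG, and the LOC107986023 member had 39.1 with 18 CpG. CpG content did not separate single starts with and without the mark: the RBFOX1 start held 25 CpG and the PTPRD start 4, and both were outside every H3K27ac peak.

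The members were mostly weak, narrow peaks. Their median fold enrichment, the authors' value at the summit, was 4.19 (quartiles 3.38 and 5.77, range 1.76 to 98.1), and their median width was 301 bp. Narrow peaks within 1 kb of a coding gene end had a median fold enrichment of 8.42 and a median width of 534 bp, while narrow intergenic peaks, outside genes and more than 10 kb from any end, had 4.33 and 303 bp. The distribution of the members lay almost on that of the intergenic peaks and well below that of the gene-end peaks. A fold enrichment above 10 was reached by 1914 members (7.51%), by 43.1% of the gene-end peaks and by 8.44% of the intergenic peaks. The list also held 2251 members (8.83%) whose own q value was above 0.05.

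**Figure D1:**
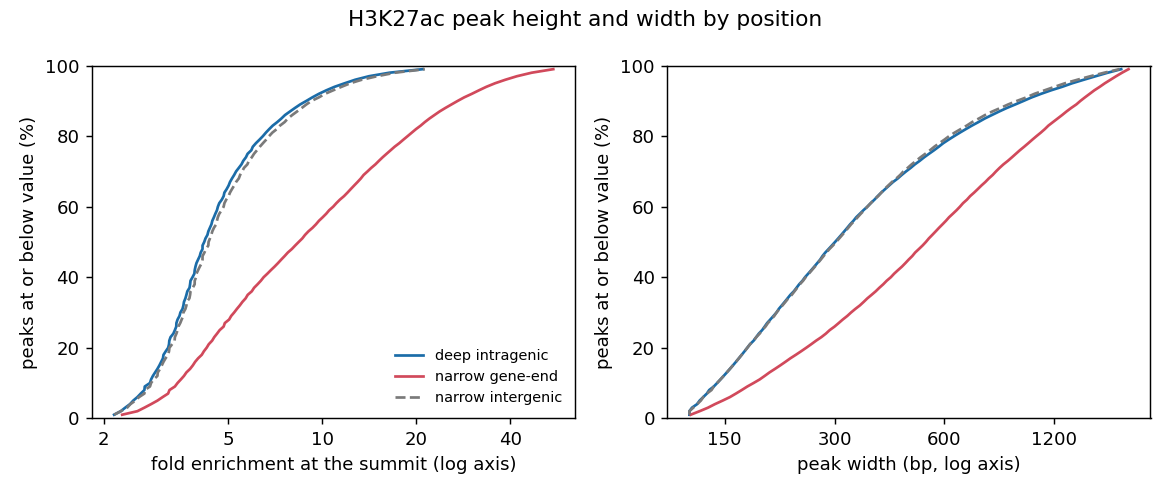
Cumulative share of peaks (percent) against fold enrichment at the summit (left, log axis) and against peak width in bp (right, log axis), for 25503 deep intragenic, 16924 narrow gene-end and 18577 narrow intergenic H3K27ac peaks, from percentile 1 to 99. The deep intragenic curve lies beside the intergenic curve, with medians of 4.19 and 4.33, and to the left of the gene-end curve, with a median of 8.42.

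The 10 strongest members, at most 1 per gene, had fold enrichments of 50.6 to 98.1. After DYNC2I2, SOD2, ACYP2 and ASNS they included CUL4B, the gene of a ubiquitin ligase scaffold (50.6), also with its summit 159 bp downstream of an internal start of the gene. The member in FRMD6, a gene of the Hippo pathway, reached 66.7, and its summit lay 144 bp downstream of the start of the lncRNA FRMD6-AS1 without the peak covering that start. Others lay in MIA2 (72.8), whose product acts in export from the endoplasmic reticulum, the chromatin ATPase gene ATAD2 (61.8) and the ubiquitin pathway gene UBE2V2 (55.0). MIA2, ATAD2 and UBE2V2 have no entry in the RefSeq promoter table, so whether these members lie at a transcript start could not be assessed. Among the members named here, the distance from the nearest coding gene end ran from 11.1 kb in UBE2V2 to 137 kb in ACYP2.

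The limits of the rule cut through continuous values. The members closest to the width limit, all 1999 bp wide, were in SASH1, ATP2C1 and PREX1, with fold enrichments of 46.0, 39.1 and 14.5. The closest peaks beyond it, 2000, 2002 and 2003 bp wide, were in ARHGAP24 (12), EPHA2 (10.1) and TMEM178B (20.1). In all, 994 peaks of 2000 bp or more lay at a deep position and are not members. At the distance limit, members in BCAR1 and ARHGEF37 lay 10.004 and 10.005 kb from a gene end with fold enrichments of 5.34 and 8.41. Just outside, peaks in RREB1, TRAF6 and PDGFC lay at 10.000, 9.999 and 9.999 kb with 3.55, 8.68 and 6.23.

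Internal transcript starts lay under a small share of all members and under a larger share of the strong ones. Starts were taken from the RefSeq promoter table, and 20833 members (81.7%) lay in a host gene with an entry there. Of these, 657 overlapped a listed start more than 10 kb from every coding gene end (3.15%, 2.92 to 3.40%), 571 of them an internal start of a coding gene and 120 the start of a nested lncRNA, with some at both. Members at a start had a median fold enrichment of 8.79 and a median width of 868 bp, against 4.14 and 293 bp for the others. The share at a start was 0.912% in the lowest decile of fold enrichment and 15.3% in the highest (13.8 to 16.9%). Of 1594 members with a fold enrichment above 10, 280 (17.6%) overlapped a start, and 1107 (69.4%) had their summit more than 5 kb from any listed internal start.

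The strong members far from a listed start included sites in GAP43, ARID1B and ETV6. The 10 strongest of them, again at most 1 per gene and looked up after the values were seen, ran from 36.3 to 48.7. The member in GAP43, which encodes a growth cone protein, had a fold enrichment of 47.0 and was 1842 bp wide, at a site 35.4 kb from the nearest coding gene end. Members in ARID1B, a subunit of the BAF chromatin remodelling complex, and ETV6, an ETS family repressor, reached 47.7 and 42.6, and the one in MARCHF1, a ubiquitin ligase gene, 48.7. Of these 10 members 4 overlapped a CTCF peak, among them those in ARID1B, GAP43 and ETV6, and 6 did not, among them the one in MARCHF1. Over all 1107 members above a fold enrichment of 10 and more than 5 kb from a listed start, the share was 14.6% (12.7 to 16.8%). The 10 were picked for their strength, and stronger members overlapped CTCF more often.

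Seen from the starts, internal coding starts carried a member more often than nested lncRNA starts. Starts of a gene within 500 bp of each other were taken as 1. Of 2400 internal coding starts 584 lay in a member (24.3%, 22.7 to 26.1%), and of 1744 nested lncRNA starts 121 (6.94%, 5.84 to 8.23%). Summits gathered around the starts: 1606 of the 20833 members (7.71%, 7.35 to 8.08%) had their summit within 1 kb of a start. That zone makes up 0.981% of the 787.5 Mb of deep interior in host genes with an entry in the promoter table. Of these summits 58.0% (55.6 to 60.4%) lay downstream of the start, at a median position of 204 bp, and the others upstream at a median position of -328.5 bp. The counts fell to 51 within the 100 bp just upstream of the start, between 141 at 200 to 300 bp upstream and 309 at 100 to 200 bp downstream.

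**Figure D2:**
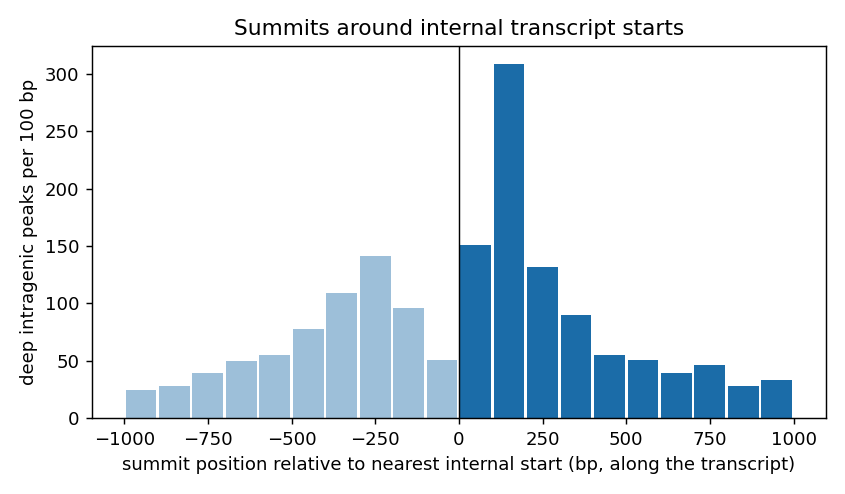
Number of deep intragenic summits per 100 bp (vertical axis) by position relative to the nearest listed internal start along the transcript (horizontal axis, bp; dark bars downstream, light bars upstream), for the 1606 members within 1 kb. The highest bar is 309 summits at 100 to 200 bp downstream, and the upstream side peaks at 141 summits between 200 and 300 bp.

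Internal coding starts in a member were richer in CpG than those outside every H3K27ac peak. Over the 300 listed bases, 250 before and 50 after the start, the median was 14 CpG for the 584 starts in a member and 5 for the 1634 starts outside. A ratio of observed to expected CpG above 0.6, a usual limit for CpG islands, was found at 50% (46.0 to 54.0%) of the first and 20.9% (19.0 to 23%) of the second, and at 67.7% of the coding starts within 1 kb of a gene end. Nested lncRNA starts showed the same order, with 44.6% (36.1 to 53.5%) in a member and 8.41% (7.14 to 9.89%) outside. Turned round, 292 of 733 internal coding starts above that ratio lay in a member (39.8%, 36.4 to 43.4%), and 292 of the 1667 at or below it (17.5%, 15.8 to 19.4%). A further 182 internal coding starts lay in an H3K27ac peak that is not a member.

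Short motifs were counted in the same 300 bases on both strands, as plain letters. CpG-containing motifs were the cAMP response element spelled TGACGTCA, the NRF1 site spelled GCGCATGC, the ETS site spelled CCGGAAG, the SP1 site spelled GGGCGGG and the CTCF core spelled AGNGGGCGC. The others were the TATA box spelled TATAAA, the AP-1 site spelled TGANTCA, the E-box spelled CAGNTG, the RFX half-site spelled GTTGCCNNG, the SOX site spelled ACAANG, the TEAD site spelled GGAATG and the NFI half-site spelled TTGGCA. SP1 letters were in 35.6% (31.8 to 39.6%) of internal coding starts in a member, 19.6% (17.8 to 21.6%) of those outside and 32.4% of all listed starts. ETS letters were in 8.56% (6.55 to 11.1%), 4.04% (3.19 to 5.11%) and 9.89%. TATA letters ran the other way, with 8.22% (6.26 to 10.7%), 16.3% (14.6 to 18.1%) and 12%, as did AP-1 letters, with 7.36% (5.51 to 9.77%), 12.3% (10.8 to 14%) and 7.92%. The G and C content moved with these shares, with a median of 59.0% in members and 49.0% outside. Among starts above the CpG ratio of 0.6 alone, SP1 letters were in 60.6% (54.9 to 66.0%) with a member and 62.0% (56.7 to 67.0%) without, and TATA letters in 2.74% and 3.51%. Of the same CpG-rich starts, AP-1 letters were in 3.42% with a member and 2.05% without, and CTCF letters in 5.14% and 7.60%, an order opposite to that over all internal coding starts, with overlapping intervals in both cases. RFX letters were in 7.02% (5.22 to 9.39%) of all internal coding starts in a member and 4.65% (3.73 to 5.78%) of those outside, and in 8.56% (5.87 to 12.3%) and 4.09% (2.45 to 6.75%) of the CpG-rich ones, again with overlapping intervals. E-box letters were in 53.1% and 55.1% of all internal coding starts in a member and outside, and CTCF letters in 3.08% and 2.02%. NRF1 letters were in 2.91% (1.83 to 4.61%) and 1.04% (0.651 to 1.66%), SOX letters in 34.1% (30.3 to 38.0%) and 41.1% (38.8 to 43.5%), and the intervals of the CRE, TEAD and NFI letters overlapped between the groups.

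Nested non-coding genes of any kind lay beside few members. The summit of 876 members (3.43%, 3.22 to 3.67%) was within 1 kb of an end of a non-coding gene, a zone covering 1.53% of the deep interior. Of these, 805 were near a lncRNA, 58 near a microRNA (miRNA) and 21 near a small nucleolar RNA gene, with some near more than 1 kind. For small nucleolar RNA genes the share of members, 0.0823% (0.0539 to 0.126%), was near their zone's 0.0720% of the deep interior. Members covered 11.4 Mb of the 957.7 Mb of deep interior. Among 489 deep miRNA hairpins 18 overlapped a member (3.68%, 2.34 to 5.74%). The highest fold enrichments were at MIR3650 in LIFR (34.4), MIR4741 in RBBP8 (26.7) and MIR6132 in ST7 (17.4). The member at MIR3650 also covers the start of the lncRNA LIFR-AS1, so its signal cannot be assigned to the hairpin. The hairpins described next were picked after the list was seen. One was the hairpin of miR-128, a brain-enriched miRNA, inside ARPP21, in a member with a fold enrichment of 7.70. The hairpins MIR199B in DNM1 and MIR199A2 in DNM3, 2 dynamin genes, lay in members with 4.42 and 4.34. The mature forms below, from RefSeq, carry their seed (bases 2 to 8) in capitals, and the miR-199 pair share 1 seed in 2 host genes of 1 family.
hsa-miR-128-3p: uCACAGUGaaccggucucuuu
hsa-miR-199b-3p: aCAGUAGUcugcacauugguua
hsa-miR-199a-3p: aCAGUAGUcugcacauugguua

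CTCF peaks were found at fewer members than at gene-end peaks. An overlap of at least 1 bp with a CTCF peak was counted for 1957 members (7.67%, 7.35 to 8.01%), for 31.6% of the gene-end peaks (30.9 to 32.3%) and for 8.94% of the intergenic peaks (8.53 to 9.35%). The difference from the gene-end peaks was -24.0 percentage points (-24.7 to -23.2), with the members lower on 23 of 23 chromosomes. The difference from the intergenic peaks was -1.26 points (-1.79 to -0.740), with the members lower on 19 chromosomes and higher on 4. That small difference was -1.31 points when averaged over the width deciles of the members, and -1.33 (-1.76 to -0.916) without CTCF peaks of 800 bp. It was -0.0441 points (-0.254 to 0.159) when summits had to lie within 100 bp of each other. Only 1.17% of members and 1.22% of intergenic peaks met that limit, so this setting cannot show whether a difference of like proportion is lost.

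Wider and stronger members overlapped CTCF more often. The share rose from 3.47% in the narrowest decile of members to 16.6% (15.2 to 18.1%) in the widest, and it was 16.8% and 45.5% for gene-end peaks of the same widths. Averaged over these 10 width classes the members stayed 18.9 points below the gene-end peaks, which were higher in 10 of 10 classes. The classes match width and not strength, and gene-end peaks had the higher median fold enrichment in every class. It was 3.62 for gene-end peaks and 3.46 for members in the narrowest class, and 12.8 and 6.51 at 638 to 989 bp. The part of strength in the gap of 18.9 points was not tested. The median fold enrichment was 5.21 for members that overlapped CTCF and 4.14 for those that did not, at median widths of 458 and 292 bp. Members at an internal start overlapped CTCF in 30.0% of cases (26.6 to 33.6%), and the other members in 7.01% (6.67 to 7.37%). The first share was close to the 31.6% of all gene-end peaks, but at unlike median widths of 868 and 534 bp. Gene-end peaks 638 to 989 bp wide overlapped CTCF in 35.9% of cases (34.2 to 37.6%). Among members with a fold enrichment above 10, the share was 39.3% (33.7 to 45.1%) at starts and 14.6% (12.7 to 16.8%) more than 5 kb from them, at median widths of 1304 and 1181 bp.

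**Figure D3:**
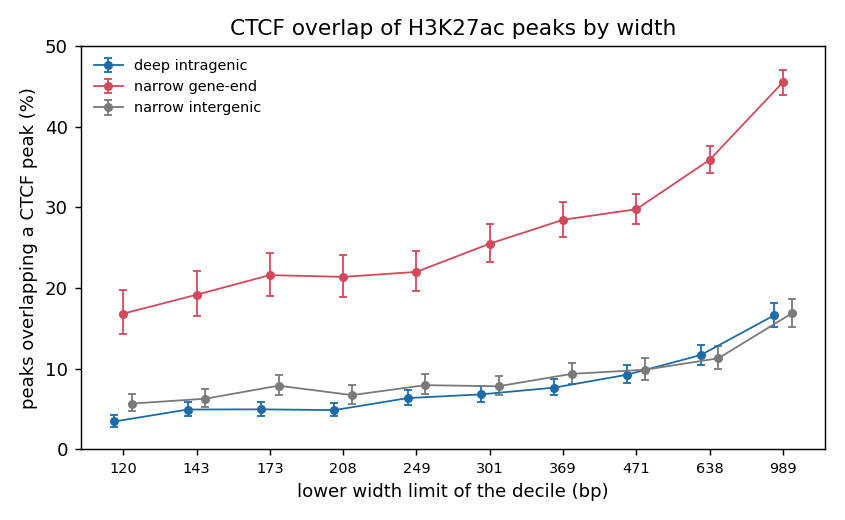
Share of H3K27ac peaks overlapping a CTCF peak (percent, vertical axis, with 95% Wilson intervals) by width class (horizontal axis, lower limit in bp of each width decile of the deep intragenic peaks), for deep intragenic, narrow gene-end and narrow intergenic peaks. The deep intragenic share goes from 3.47% to 16.6% and stays below the gene-end share, from 16.8% to 45.5%, in every width class shown.

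Most CTCF sites in the same stretches had no member. The deep interior held 12008 CTCF summits, and 1767 of these CTCF peaks (14.7%) overlapped a member. Members covered only 11.4 Mb of the 957.7 Mb of deep interior, so this share does not show that members and CTCF avoid each other. The share to be met by position alone was not computed. The median distance from a member's summit to the nearest CTCF summit was 18.5 kb. CTCF overlap fell with distance from the gene ends, from 11.1% (10.3 to 12.1%) of members 10 to 20 kb from an end to 5.52% (4.58 to 6.62%) at 200 to 500 kb and 2.83% (1.44 to 5.48%) beyond 500 kb. The median fold enrichment varied little over the same distances, from 4.13 to 4.21.

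Members were spread over the deep interior at 2.66 per 100 kb, and thinned out far from gene ends. The deep interior, all positions that meet the rule's distance limits, was 957.7 Mb. The density was 2.66 per 100 kb (2.58 to 2.73) at 10 to 20 kb from an end, 3.08 (3.0 to 3.16) at 50 to 100 kb, 1.77 (1.70 to 1.85) at 200 to 500 kb and 1.25 (1.11 to 1.40) beyond 500 kb. Along the host genes whose strand is listed, the first of 10 equal segments had 2.05 (1.91 to 2.19) and the last 3.09 (2.92 to 3.26), with 2.57 to 2.81 in between. These 2 segments held 42.2 and 41.9 Mb of deep interior, against 77.8 to 96.3 Mb in the others, so the segments weight the genes differently. By distance, the density at 10 to 20 kb was 2.72 from the 5′ end and 2.69 from the 3′ end. It was 2.69 and 3.06 at 50 to 100 kb, and 2.26 and 1.47 beyond 500 kb, with no constant order. By chromosome the density was highest on 19 (4.47), 22 (4.42) and 17 (4.15), which are rich in genes, and lowest on X (1.29, 1.18 to 1.41). The median fold enrichment of members was highest on X, at 4.61. The number of X copies in the line is not stated here, and its part in these values was not tested.

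Members came in runs. Of the 25503, 21081 (82.7%, 82.2 to 83.1%) had another member of the same gene within 12500 bp, and the median gap between successive members of a gene was 1.86 kb. The first quartile of these gaps was 0.648 kb. Members are peak calls, and whether close ones are parts of 1 acetylated stretch was not tested. The same share was not computed for other H3K27ac peaks. Chained at 12500 bp the members formed 5903 groups, of which 206 held 10 or more members. The longest run was in ZMIZ1, which encodes a transcriptional coactivator of the PIAS family, with 94 members over 219.4 kb. These members had fold enrichments of 2.01 to 9.35 and covered 17.7% of the run. The next longest were in GSE1, a gene of a histone deacetylase complex component, with 49 members over 108 kb, and in MSI2, a progenitor RNA-binding protein, and the Src family kinase gene FYN, with 46 each. A gene can hold several runs: MSI2 had another of 24 members. The microtubule-associated protein gene MAP1B held a run of 31 over 73.2 kb (fold enrichment 2.34 to 16.1).

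Slightly more than every other long gene held a member. Of 7195 coding genes with at least 20 kb of deep interior, 3957 held 1 or more, a background of 55.0% (53.8 to 56.1%). The share rose with length, from 27.4% in the shortest of 5 length groups to 88.2% in the longest. Members were concentrated: the 720 genes with the most members held 56.3% of all members, and the top 72 held 13.8%. Across the 7195 genes the rank correlation (Spearman) of member count with deep interior was 0.53, a description, since genes are not independent replicates.

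The genes with the most members included GSE1, ZMIZ1, ZFHX3 and RERE, which encode regulators of transcription. MSI2 held 122, GSE1 107, AUTS2, a neurodevelopmental gene, 100, and ZMIZ1 94. FRMD4A and KAZN, genes of cell junction and scaffold proteins, held 77 and 73. The homeobox gene ZFHX3 held 71, the corepressor gene RERE 67 and FYN 64. Within these genes the median fold enrichment stayed between 3.44 and 4.37, near the median of all members. The strongest member of each had a fold enrichment from 9.35 in ZMIZ1 to 26.5 in RERE.

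Ranked by density among genes with at least 100 kb of deep interior, ZMIZ1 led with 41.3 members per 100 kb. Other dense genes were SEMA6A, a semaphorin of axon guidance (34.2), FYN (33.1), RAI1, a chromatin-associated regulator (32.8), and MSI2 (28.7). Further down were LRIG1, a negative regulator of growth factor receptors (28.4), CCDC33 (26.9), the histone demethylase gene KDM4B (24.9) and the vinculin gene VCL (24.5). At the other end, CSMD1, CDH12, EPHA6, FRMPD4 and PCDH11X had the longest deep interiors without a member, 824 to 2040 kb. CSMD1 and FRMPD4 held no H3K27ac peak of any kind, and CDH12, EPHA6 and PCDH11X held 1 each outside the members. FRMPD4 and PCDH11X lie on X, the chromosome with the lowest member density. CDH12, a cadherin, EPHA6, an ephrin receptor, and FRMPD4, a postsynaptic protein, are known from the nervous system.

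**Figure D4:**
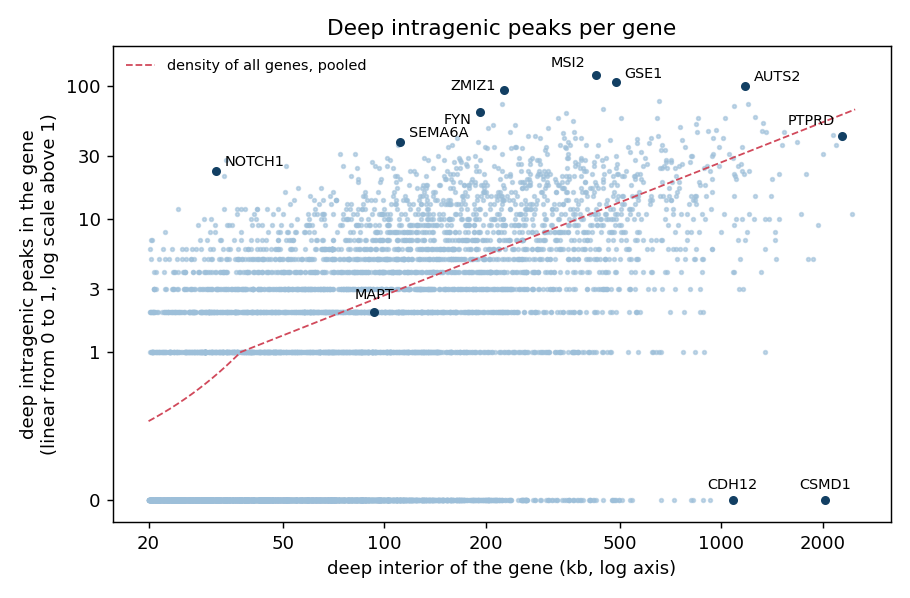
Deep intragenic H3K27ac peaks in each of 7195 genes (vertical axis, linear from 0 to 1 and log scale above) against the length of the gene's deep interior (kb, log axis), with 11 genes labelled and the pooled density of all genes as a dashed line. MSI2, GSE1 and AUTS2 stand at 122, 107 and 100 peaks, while CSMD1 and CDH12 stand at 0 despite deep interiors above 1000 kb.

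Gene groups differed in how densely their interiors were marked. For all genes with at least 20 kb of deep interior the pooled density was 2.67 members per 100 kb, and the median gene had 0.864. Since longer genes hold a member more often, each list's count of genes with a member stands beside the share over genes of the same 5 length groups. Genes of progenitors and radial glia had 8.36 (7.50 to 9.30), 3.13 times that density, and 21 of 22 held a member (95.5%, against 65.7% at the same lengths). MSI2 had 122 of their 343 members, and the ratio was 2.25 without it. LRIG1 held 29 of the others, ERBB4, a neuregulin receptor gene, and TEAD1, a Hippo pathway factor, 26 each. NOTCH1, named after its value was seen, had the highest density of the list with 23 members in 31.6 kb.

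Long genes of neural transcription factors had 5.27 members per 100 kb (4.94 to 5.61), 1.97 times the density of all genes. Of 49 such genes 48 held a member (98.0%, against 80.0% at the same lengths), and 40 lay above the median density of genes of similar length. The list also holds the splicing regulator RBFOX1, without which its ratio was 2.25. ZFHX3 held 71, the Hedgehog effector gene GLI2 45 and the nuclear factor I gene NFIA 45, a number that NPAS3 shared. RORB, a receptor-type factor of upper cortical layers, had none in 176 kb.

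Axon guidance genes had 3.69 members per 100 kb (3.37 to 4.03), and 35 of 38 held a member (92.1%, 79.2 to 97.3%, against 76.0% at the same lengths). SEMA6A held 38, the netrin receptor gene DCC 35, the plexin gene PLXNA2 34 and the ephrin gene EFNA5 29. The ephrin receptor genes EPHA6 and EPHA7 had none. Genes of the neuronal cytoskeleton and of synaptic scaffolds had 3.53 (3.28 to 3.8), with 38 of 43 holding a member (88.4%, 75.5 to 94.9%, against 79.5% at the same lengths). NAV2, a neuron navigator gene, held 49, the catenin gene CTNND2 46, the scaffold gene DLG2 43, and MACF1 and MAP2, genes of cytoskeletal linker and microtubule proteins, 41 each. PCLO, a presynaptic scaffold gene with 389 kb of deep interior, and SYN2, a synapsin gene, held none.

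Synaptic adhesion genes and ion channel genes had a lower pooled density than all genes, while their median gene did not. The median gene had 1.84 members per 100 kb in the adhesion list and 1.76 in the channel list, and 22 of 41 and 24 of 49 genes lay above the median density of genes of similar length. Synaptic adhesion genes had 1.87 per 100 kb (1.73 to 2.03), 0.701 times the density of all genes, with 38 of 41 holding a member (92.7%, against 84.9% at the same lengths). The teneurin genes TENM2 and TENM3 held 58 and 53, LRRC4C, a netrin-G ligand gene, 46 and PTPRD 42. CDH12 and the contactin gene CNTN6 held none. Ion channel genes had 2.07 (1.88 to 2.28), 0.777 times, with 47 of 49 holding a member (95.9%, against 83.7%). The glutamate receptor gene GRIA1 held 31, with a strongest fold enrichment of 34.5, and the calcium channel subunit gene CACNA2D3 24, while SCN9A and GRIA2 held none.

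Of the 3 lists for other cell types, 2 lay below the density of all genes and 1 above it. Blood and immune genes had 1.96 per 100 kb (1.6 to 2.36), and 17 of 32 held a member (53.1%, against 65.0% at the same lengths), close to the background of 55.0%. Liver, muscle and gut genes had 1.44 (1.09 to 1.88), with 15 of 27 holding a member (55.6%, against 64.0%). Leaving out BACH2, a transcription factor gene with 29 of the 107 members of the blood list, brought that list to 0.571 times the density of all genes, from 0.733. Leaving out CUBN, the gene of the receptor cubilin, with 22 of 55, brought the liver, muscle and gut list to 0.350 times, from 0.540. TTN and CFTR, the genes of titin and an epithelial chloride channel, had none. Astrocyte and oligodendrocyte genes had 4.47 (3.28 to 5.94), with 8 of 11 holding a member (72.7%, 43.4 to 90.3%, against 54.9%), 1.67 times the density of all genes and 1.26 times without SLC1A3. SLC1A3, a glutamate transporter gene also used by radial glia, held 14 of their 47 members and the factor gene ST18 15.

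**Figure D5:**
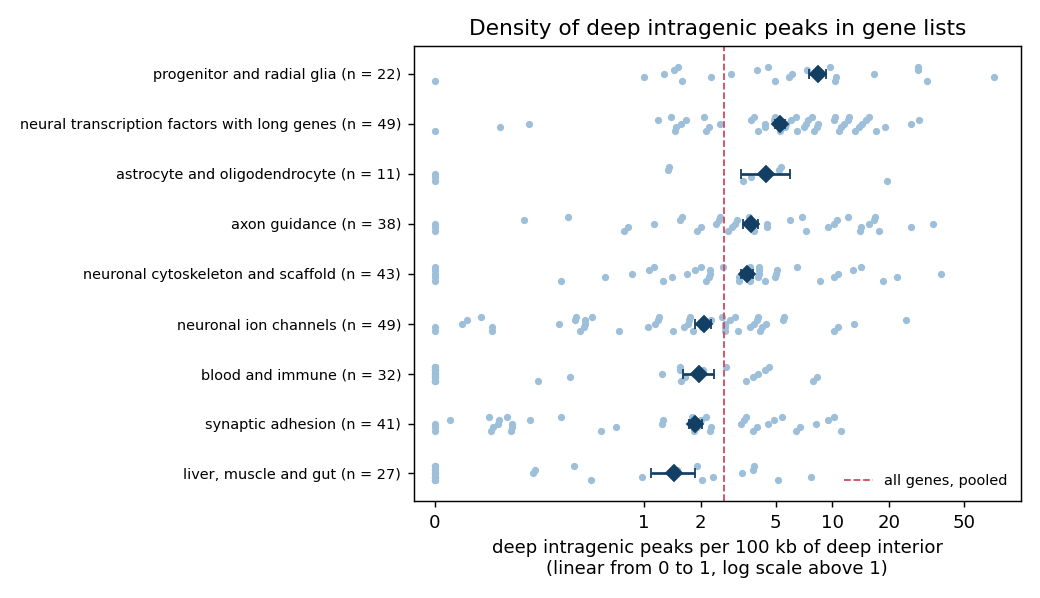
Deep intragenic H3K27ac peaks per 100 kb of deep interior (horizontal axis, linear from 0 to 1 and log scale above) in 9 gene lists. Light points are single genes with at least 20 kb of deep interior, diamonds the pooled density of a list with its 95% Poisson interval, and the dashed line the pooled density of all genes (2.67); progenitor genes (8.36) and neural transcription factor genes (5.27) lie to its right and synaptic adhesion genes (1.87) to its left.

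MAPT, the tau gene on whose regulation the study centres, held 2 members in 93.3 kb of deep interior. Their fold enrichments were 7.28 and 2.49 with −log10 q values of 10.4 and 1.13, so the second had a q above 0.05. They lay 11.5 and 12.1 kb from the nearest coding gene end, and neither overlapped a CTCF peak. The density of 2.14 per 100 kb placed MAPT at percentile 63 of the 7195 genes.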

How the data were processed

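ChIP-seq peak lists for H3K27ac and CTCF were analysed. Per the submitters' processing notes, reads were handled with cutadapt 1.16 and the build was hg38. The aligner, the peak caller and its settings are not given in the sources used here. Each deposited list holds 1 set of peaks for both libraries of an antibody, with 0 columns of single samples, so depth and replicate spread are unknown. The H3K27ac list holds the authors' fold enrichment at the summit, read as a ratio from its values, and a −log10 q value. The CTCF list holds the authors' signal value on a scale that is not stated, and a −log10 q value; 55 rows of the H3K27ac list outside chromosomes 1 to 22 and X were left out.

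Gene intervals, starts and sequences came from RefSeq tables of GRCh38.p14, the same build. Gene strand and starts were known only for genes in the promoter table, so start analyses used the 20833 members with such a host. Overlap meant at least 1 shared bp. Shares have Wilson intervals, differences Newcombe intervals and densities Poisson intervals, with no p-value over peaks. Python 3.11.15, pandas 2.3.3 and scipy 1.17.1 were used, and placement and overlap code was tested on simulated data. Members, the 9 gene lists and the motifs were chosen with earlier results of these data known. The text names the 10 strongest members (1 per gene), the 10 genes with the most members and the 10 densest, the 5 longest without a member, up to 4 genes with the most members and 2 without per list, MAPT, and the 3 peaks nearest to each limit on either side. Some results that this rule selects are not reported here. Sequences around summits, planned for motif counts, were replaced by listed start sequences. The alternatives tried are in the closing section.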

Additional observations from a re-analysis of the deposited data

How the results depend on the processing

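Of 72 alternatives, 29 left a value inside its 95% interval, 43 moved it and 0 reversed a difference. A reversal was looked for only in the differences in CTCF overlap from gene-end and intergenic peaks, so most of the alternatives could not give one. The share of the list (32.4%) was 37.1%, 26.4% and 16.3% at distance limits of 5, 20 and 50 kb, 29.3% at widths under 1000 bp, 33.7% without a width limit, 31.8% at q under 0.05 and 24.9% in the strongest 50% of the list. CTCF overlap (7.67%) was 3.71% where 50% of the peak had to be covered, 4.46% with the summit inside a CTCF peak, 1.17% with summits within 100 bp, 11.2% in the strongest 50% of the list, 4.49% without CTCF peaks of 800 bp, 3.62% with the strongest 50% of CTCF peaks, 6.89% beyond 20 kb and 6.70% under 1000 bp. Its difference from gene-end peaks (-24.0 points) was -4.34 with summits within 100 bp, -18.9 over width classes and -15.2 without CTCF peaks of 800 bp. The difference from intergenic peaks (-1.26) was -0.0441 with summits within 100 bp, -1.31 over width classes and -1.33 without CTCF peaks of 800 bp. Median fold enrichment (4.19) was 4.37 at q under 0.05 and 4.03 under 1000 bp, and the mean was 5.32. Genes with a member (55.0%) were 40.6% at any interior, 80.5% at 100 kb or more, 53.6% at q under 0.05 and 40.2% in the strongest 50%. Members with a neighbour (82.7%) were 75.3% within 5 kb, 87.9% within 25 kb and 81.2% at q under 0.05. Members at a non-coding gene (3.43%) were 2.04% within 500 bp and 5.82% within 2000 bp. The density ratio of progenitor genes (3.13) was 2.59 in the strongest 50%. Chosen after seeing the data, leaving out the gene that moved a list most gave 1.55 for axon guidance (ROBO2), 2.25 for transcription factors (RBFOX1), 2.25 for progenitors (MSI2), 0.571 for blood (BACH2) and 0.350 for liver, muscle and gut (CUBN). Also chosen after seeing the data, members at a start (3.15%) were 5.82% and 7.71% with the summit within 500 bp and 1 kb, 6.49% in the strongest 50% and 2.74% for coding starts only, and CpG-rich starts (50%) were 56.2% above a ratio of 0.5 and 43.0% above 0.7. The causes were not tested. No paired analysis was possible because each list covers both replicates, and leaving out a replicate was not run for the same reason. Motif and CpG counts around summits were not run, since no genome sequence was used. Weak members near the detection limit of the pooled list may change with depth, which is unknown.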
